A study of Mus musculus with 3 samples.

Results

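Presomitic mesoderm cells were taken from the single-cell RNA sequencing of 3 wild-type mouse embryos by the transcripts they held. A barcode that passed quality control was a member if it had a unique molecular identifier (UMI, 1 counted RNA molecule) of Tbx6, UMIs of at least 3 of the 5 markers Tbx6, Msgn1, Dll3, Hes7 and Dll1, and no UMI of Sox2, Noto or Foxj1. The rule found 1291 presomitic mesoderm cells among 22168 barcodes. They came from all 3 embryos, with 577 of 6129 barcodes in embryo 1 (9.41%, exact 95% binomial interval 8.69 to 10.2%), 377 of 8116 in embryo 2 (4.65%, 4.20 to 5.13%) and 337 of 7923 in embryo 3 (4.25%, 3.82 to 4.72%). The mean share was 6.10% ± 2.87 (SD, n = 3 embryos), and the 3 embryos form 1 group, so no comparison of shares between conditions exists. Intervals cover counting error only.

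The study characterized the left-right organizer, the ciliated pit at the distal end of the embryo, and profiled all cells of the embryo proper to do so. The embryos were labelled wt and E8 with 0 to 2 somites (the study's text gives a narrower stage), on a mixed C57BL/6 x 129 SvEv background. The extraembryonic tissue was taken off before dissociation. No treatment or engineered allele was named for these embryos, but embryos 1 and 3 held UMIs of EGFP, a reporter sequence. Each embryo was dissociated and loaded by itself, which makes the embryo the replicate. The libraries of embryos 1, 2 and 3 held 207961733, 149341900 and 167503888 UMIs in 6579, 8621 and 8333 barcodes. Presomitic mesoderm cells had a median of 24952, 14628 and 18620 UMIs, against 26942, 14460 and 16181 in all other barcodes, so that the depth of members and of the rest was close within each embryo, and embryo 1 was the deepest. Their summed UMIs were 17018624, 6661764 and 7155908.

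Presomitic mesoderm is the unsegmented mesenchyme on both sides of the neural tube, fed by the primitive streak and tail bud at its caudal end and budding off somites at its rostral end. Cells pass from a caudal state driven by Wnt and fibroblast growth factor (FGF) signals to a rostral state exposed to retinoic acid. On the way, Notch signalling and the oscillating repressor Hes7 time the formation of each somite. Tbx6 and Msgn1 are transcription factors that commit cells to this fate, Dll1 and Dll3 are Notch ligands, and Lfng is a glycosyltransferase that modifies the Notch receptor.

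The stretches before the start sites of 5 of these genes are shown because they hold the letters searched for 3 regulators of the tissue. The 250 bases before each RefSeq start (mouse build GRCm38.p6) run 5′ to 3′ along the gene's strand, and capitals mark each match on either strand to TGGGAA for RBPJ, the DNA-binding partner of Notch (TTCCCA on the opposite strand), to GGTGTGA for T-box factors (TCACACC opposite) and to CTTTGAT for LEF1 and TCF, the mediators of Wnt (ATCAAAG opposite). The windows are chr12:11208949-11209198 (minus strand), chr11:69120203-69120452, chr5:140607091-140607340, chr4:154960673-154960922 and chr9:87015287-87015536 (plus strand).
Msgn1: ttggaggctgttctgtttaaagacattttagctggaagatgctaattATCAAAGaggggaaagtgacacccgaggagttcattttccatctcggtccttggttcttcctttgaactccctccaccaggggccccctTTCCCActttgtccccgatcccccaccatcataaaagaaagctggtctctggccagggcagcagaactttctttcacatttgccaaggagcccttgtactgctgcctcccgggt
Hes7: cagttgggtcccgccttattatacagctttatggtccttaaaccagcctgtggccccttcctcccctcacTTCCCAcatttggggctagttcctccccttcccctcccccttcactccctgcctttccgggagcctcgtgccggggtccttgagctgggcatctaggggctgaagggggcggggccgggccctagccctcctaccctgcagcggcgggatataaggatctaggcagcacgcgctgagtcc
Lfng: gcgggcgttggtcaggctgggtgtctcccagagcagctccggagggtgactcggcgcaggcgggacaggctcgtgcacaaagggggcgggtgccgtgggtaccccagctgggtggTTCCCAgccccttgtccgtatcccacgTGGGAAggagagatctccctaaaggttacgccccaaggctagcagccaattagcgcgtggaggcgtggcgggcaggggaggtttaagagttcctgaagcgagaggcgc
Hes5: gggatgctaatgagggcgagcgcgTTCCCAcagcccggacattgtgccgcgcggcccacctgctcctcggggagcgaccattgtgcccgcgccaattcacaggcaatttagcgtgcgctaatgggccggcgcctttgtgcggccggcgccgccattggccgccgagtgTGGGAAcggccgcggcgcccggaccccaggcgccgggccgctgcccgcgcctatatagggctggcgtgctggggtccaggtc
Ripply2: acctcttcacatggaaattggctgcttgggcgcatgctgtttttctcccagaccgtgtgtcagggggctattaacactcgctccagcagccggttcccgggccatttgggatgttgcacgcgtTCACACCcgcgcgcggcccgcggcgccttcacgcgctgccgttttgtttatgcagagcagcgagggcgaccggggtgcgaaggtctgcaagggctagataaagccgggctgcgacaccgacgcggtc
Lfng held an RBPJ match on each strand, 135 and 108 bases before the start, and Hes5, a Notch target, held one on each strand at 226 and 82 bases. Hes7 held 1 RBPJ match at 180 bases, and Msgn1 held 1 RBPJ match at 114 bases and 1 LEF1/TCF match at 203 bases. Ripply2, a repressor of the somite boundary program, held 1 T-box match at 127 bases. Of the 26 genes searched, 19 had a promoter window (250 bases before and 50 after the start), and 4 of these held the RBPJ letters, which 25.6% of 32851 mouse promoter windows of that length also held. The T-box letters stood in 1 of the 19 genes and in 3.98% of all windows, and the LEF1/TCF letters in 1 of the 19 and in 3.73%. The matches did not overlap each other. A match is a description of the letters and not a binding site.

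The values that chose the members are given here without a test. Levels are the UMIs of a gene per 1000000 UMIs of the class in an embryo (CPM). Tbx6 (ENSMUSG00000030699, chr7:126781483-126785560 of GRCm38) had 116, 116 and 108 CPM in presomitic mesoderm cells of embryos 1, 2 and 3, and a mean of 9.79 in all other barcodes. Hes7 had 115, 119 and 109 CPM against a mean of 17.5, Dll1 had 133, 113 and 90.4 against 11.7, and Dll3 had 100.4, 86.8 and 66.8 against 10.8. Msgn1 (chr12:11208360-11208972) was the sparsest marker at 9.17, 11.7 and 12.6 CPM against 0.948, and it had a UMI in 134, 70 and 82 of the members. Dll3 was found in 526, 301 and 263 members, Hes7 in 460, 299 and 265, and Dll1 in 537, 314 and 291.

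Of the barcodes with Tbx6 (1416, 1017 and 1223 in the 3 embryos), 1073, 658 and 803 held at least 3 of the 5 markers. A UMI of Sox2, which marks neural and bipotent cells, removed 480, 273 and 457 of these. Noto, a notochord factor, removed 27, 17 and 20, and Foxj1, a factor of ciliated cells, removed 36, 16 and 27. These removals overlap, as some barcodes held UMIs of several of these genes. The 493 members just inside the threshold, with exactly 3 markers, had mean levels of 57.6 CPM of Dll3, 92.5 of Dll1 and 68.4 of Hes7, and the 319 barcodes just outside it, with Tbx6 and exactly 2 markers, had 19.3, 28.8 and 42.5. Of genes outside the rule, there were 534 and 361 CPM of Aldh1a2, 11.6 and 6.23 of Lfng, and 101.3 and 99.9 of T just inside and just outside.

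The label was checked with 4 markers of this tissue that the rule did not use. Rspo3, a secreted enhancer of Wnt signalling, had a UMI in 99.2% of members and 41.6% of other barcodes, and in 14.9% of the 932 erythroid-type barcodes that served as the background (UMIs of Klf1 and Gata1, none of Tbx6, Sox2, Noto or Foxj1). Shares of members and other barcodes are means over the embryos, and those of erythroid-type barcodes are pooled, since embryo 1 held 2 of them. For Rspo3 they were 10.4% in embryo 2 and 25.8% in embryo 3. Lfng was found in 30.9% ± 12.5 of members, 8.34% of other barcodes and 0.536% of erythroid-type barcodes. Hes5 was found in 17.2% ± 5.55, 6.37% and 0.215%, and Pcdh8, a protocadherin of the segmenting mesoderm, in 24.7%, 5.12% and 0.215%. With every barcode thinned to 5000 UMIs (1 member and 226 others had fewer), the shares in members and others were 86.6 and 23.4% for Rspo3, 10.4 and 2.09% for Lfng, 5.90 and 1.45% for Hes5, and 9.82 and 1.496% for Pcdh8. All 4 kept the same order at equal depth. The 3 related classes defined further on held these transcripts too. Rspo3 was found in 86.4% of streak-type, 68.1% of neuromesodermal-type and 45.4% of somite-type barcodes, Lfng in 10.5, 14.1 and 10.5%, Hes5 in 13.3, 13.9 and 3.73% and Pcdh8 in 1.89, 5.36 and 15.1% (means over the embryos). The erythroid-type barcodes had median depths of 23270, 15427 and 16752 UMIs.

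The libraries were not alike in every class. Erythroid-type barcodes numbered 2, 663 and 267 in embryos 1, 2 and 3. Embryo 1 also held the highest share of presomitic mesoderm, and its barcodes were the deepest; after thinning to 5000 UMIs and applying the rule again, the shares were 2.61, 1.502 and 1.32%. Pairs of libraries shared 22, 18 and 19 barcode sequences, and 1 sequence was in all 3. No doublet caller removed cells, because Scrublet's own threshold marked 1 barcode in each library. Of the members, 67 were in the top 6% of its scores, and the results without these barcodes were computed as well.

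The first comparison set presomitic mesoderm cells against all other barcodes of the same embryos, to describe what else set them apart. UMIs were summed per embryo and class, and edgeR's quasi-likelihood test was applied to 15912 genes with Benjamini-Hochberg adjustment, which holds for every adjusted p below. At an adjusted p of 0.05, 2200 genes (13.8%) passed, 889 higher in presomitic mesoderm (5.59%) and 1311 lower (8.24%). The levels of the embryos did not overlap between the classes in 12.4% of genes on the higher and 20.8% on the lower side. With the embryo as a block, since both sums of an embryo come from the same animal, 5005 passed. The count was 1409 without embryo 1, 1007 without embryo 2 and 353 without embryo 3. The 8 genes of the rule are part of the fit, and their rows are not counted in any list.

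Notch pathway and segmentation clock genes moved in both directions, with 7 of 24 higher and 4 lower, and a median log2 fold change of 0.13 beside -0.00 for all genes. Lfng (chr5:140607320-140615545) had 25.7, 13.8 and 18.6 CPM in members of embryos 1, 2 and 3, and 5.27, 3.67 and 4.01 in other barcodes. The groups did not overlap, and the log2 fold change was 2.22 (SE 0.22, edgeR adjusted p = 0.00072). Notch1, the receptor, had 104.5, 71.8 and 78.3 CPM against 31.5, 19.2 and 26.3, again without overlap (log2 fold change 1.76, SE 0.19). The target genes split. Hes5 had 16.5, 10.2 and 9.22 CPM against 4.21, 2.84 and 3.07 (1.89, SE 0.24, edgeR adjusted p = 0.0021), whereas Hes1 had 23.2, 19.8 and 23.1 against 43.5, 36.5 and 42.1 (-0.85, SE 0.10, edgeR adjusted p = 0.0013), so that every embryo was higher for one and lower for the other. The feedback inhibitor Nrarp rose by 1.28 and the coactivator Maml3 by 0.82 on the log2 scale. Dtx4, a ubiquitin ligase of the pathway, fell by 2.03, Mfng, another glycosyltransferase, by 1.21, and the non-canonical ligand Dlk1 by 0.60. The calls of Nrarp without embryo 3 (1.30), of Dlk1 without embryo 2 (-0.53) or 3 (-0.52), and of Mfng without any 1 embryo (-1.18 to -1.24) were lost, and without embryo 2 the list counted 6 higher and 2 lower.

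The genes that draw the next somite boundary were sparse and uneven between embryos. Ripply2 (chr9:87015537-87019917) had 4.82, 14.6 and 1.96 CPM in members and 0.953, 1.61 and 0.673 in other barcodes, a log2 fold change of 2.71 (SE 0.63, edgeR adjusted p = 0.024). Mesp2, the factor that starts the segmental program, had 2.00, 2.55 and 0.559 CPM from 55 UMIs in all, against 0.577, 0.446 and 0.340 (1.95, SE 0.44, edgeR adjusted p = 0.022). Embryo 3 was lowest for both, and its Mesp2 level in members lay within the range of the other barcodes of embryos 1 and 2. Both calls were lost without embryo 1 (2.85 for Ripply2 and 1.97 for Mesp2), that of Ripply2 also without embryo 3 (2.89), and that of Mesp2 without embryo 2 (1.66). A UMI of either gene was present in 48, 37 and 10 members.

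**Figure D1:**
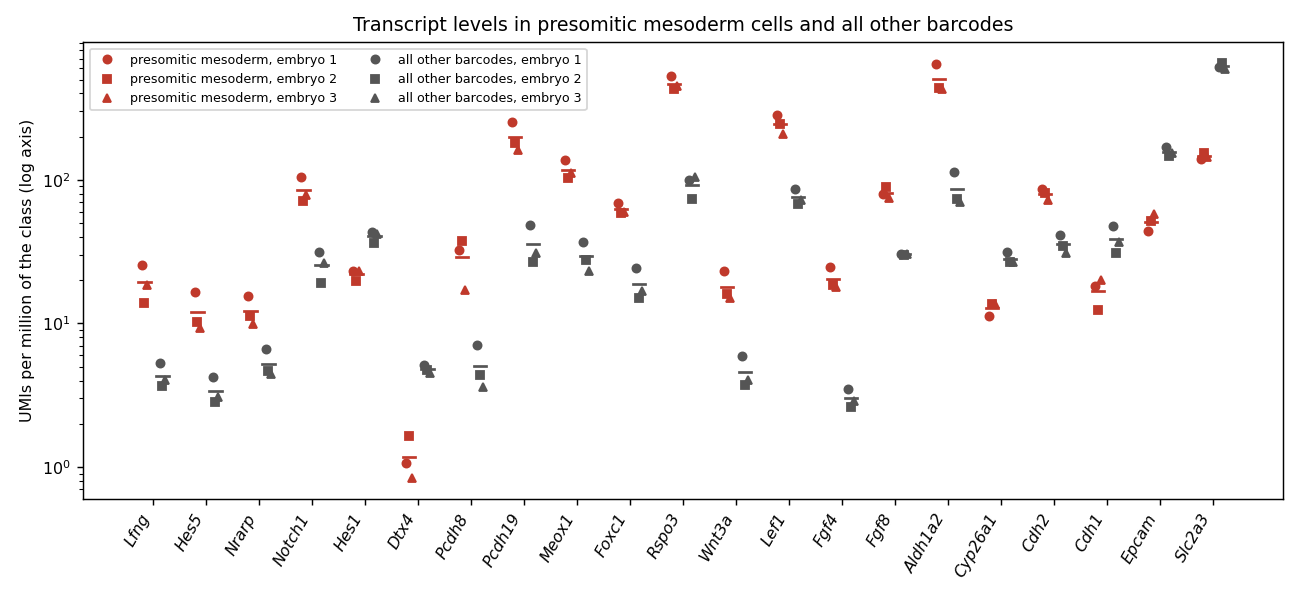
Levels of 21 genes in CPM of the class (log axis) in presomitic mesoderm cells (red) and all other barcodes (grey), 1 point per embryo, with a line at the mean. Fgf4 lies between 18.0 and 24.6 in members and between 2.63 and 3.51 elsewhere, and Slc2a3 shows the opposite order at 140.3 to 154 against 591 to 652.

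Of 25 genes of somite formation and paraxial mesoderm, 10 were higher, 1 was lower and 14 did not pass (median log2 fold change 0.49). Rspo3 (chr10:29452416-29535867) had 527, 431 and 448 CPM in members and 99.3, 73.6 and 104.7 in other barcodes (2.37, SE 0.14, edgeR adjusted p = 6.2e-05). Pcdh8 had 32.5, 37.2 and 17.05 CPM against 7.09, 4.40 and 3.60 (2.56, SE 0.31), and Pcdh19, another protocadherin, had 251, 179.5 and 162 against 48.6, 26.8 and 31.0 (2.51, SE 0.23). The somite transcription factor Meox1 had 137, 103 and 112 CPM against 37.1, 27.8 and 23.2 (2.03, SE 0.17). None of these 4 genes had an embryo in which the groups overlapped. Foxc1, Foxc2, Mesp1, Epha4, Fst and Dact1 were the other genes of the list that rose, but Foxc2 and Epha4 were not called without embryo 3 (1.25 and 1.23), and the pharyngeal factor Tbx1 fell by 0.85, a call that was lost without any 1 of the embryos (-0.58 to -1.10). With the embryo as a block, 13 genes of the list were higher and 4 lower. The differentiated somite genes Uncx, Tbx18, Pax3 and Pax9 did not pass.

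FGF ligands were mostly higher in presomitic mesoderm, and their receptors were not. Of 24 FGF pathway genes, 12 were higher and 4 lower (median 0.46). Fgf4 (chr7:144847367-144865243) was the gene with the largest rise among those named by size, at 24.6, 18.5 and 18.0 CPM in members and 3.51, 2.63 and 2.86 in other barcodes (2.80, SE 0.16, edgeR adjusted p = 6.2e-05). Fgf8, the main caudal FGF, had 79.9, 89.2 and 75.0 CPM against 30.2, 30.0 and 30.6 (1.45, SE 0.08). Fgf17, Fgf15, Fgf3 and Fgf18 also rose, by 1.63, 1.54, 1.03 and 1.97. Transcriptional targets and feedback inhibitors of the pathway rose by 0.85 for Etv4, 0.81 for Dusp6, 0.89 for Spry4, 0.45 for Dusp4 and 1.13 for Spred2, the last not called without embryo 3 (1.15). The receptor Fgfr2 fell by 1.64, and Fgfr3, Fgfr4 and the ligand Fgf5, of the early epiblast, were lower too, but Fgfr4 was not called without embryo 2 (-1.36) or 3 (-1.68), Fgf5 without embryo 1 (-1.53) or 3 (-2.62) and Fgfr3 without any 1 embryo (-0.62 to -0.84). Fgfr1 had a log2 fold change of 0.46 (edgeR adjusted p = 0.14). Without embryo 3 the list counted 6 higher and 1 lower, without embryo 1 or 2 it counted 9 and 2, and the calls of Fgf17 (1.69), Fgf18 (2.18), Fgf3 (1.31) and Dusp4 (0.52) were among those lost without embryo 3. That of Fgf18 was also lost without embryo 1 (2.11), that of Fgf3 without embryo 2 (1.10) and that of Dusp4 without embryo 1 (0.45) or 2 (0.36).

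Wnt signalling genes followed a similar split, with 13 of 34 higher and 6 lower (median 0.31). The caudal ligand Wnt3a (chr11:59248033-59290752) had 23.0, 16.1 and 14.95 CPM in members and 5.93, 3.70 and 4.05 in other barcodes (2.03, SE 0.22, edgeR adjusted p = 0.00094). Lef1, a nuclear mediator, had 285, 245 and 207 CPM against 86.7, 67.4 and 72.9 (1.73, SE 0.12), and the target Sp5 had 145, 131 and 145 against 59.8, 51.4 and 49.2 (1.42, SE 0.09). No embryo overlapped in these 3 genes. The ligands Wnt5a and Wnt5b, the targets and inhibitors Axin2, Nkd1, Nkd2, Dkk1 and Dact1, the mediator Tcf7 and the receptor Fzd10 rose too, with 0.87 for Wnt5a, 0.89 for Nkd1 and 0.77 for Axin2. The receptors and co-receptors Fzd8, Lrp5 and Lgr4, the inhibitor Sfrp1, the ubiquitin ligase Rnf43 and the mediator Tcf7l2 were lower. Of these, Lrp5 (-0.63 to -0.91) and Rnf43 (-1.15 to -1.40) were not called without any 1 embryo, and Dkk1 (0.44 and 0.47), Fzd10 (1.06 and 1.21) and Tcf7l2 (-0.62 and -0.61) without embryo 2 or 3. The calls of Axin2 (0.80), Tcf7 (0.56), Lgr4 (-1.07) and Sfrp1 (-0.81) were lost without embryo 3, where the list counted 9 higher and 1 lower, and without embryos 1 and 2 there were 4 and 3 lower.

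Of 20 primitive streak and tail bud genes, 10 were higher and 4 lower (median 0.64). T, the T-box factor of the streak, had 124, 105.2 and 114 CPM in members and 53.5, 39.4 and 51.3 in other barcodes (1.28, SE 0.12, edgeR adjusted p = 0.00044). Mixl1, a streak homeobox gene, had 18.3, 20.3 and 12.2 CPM against 4.57, 3.38 and 4.45 (2.06, SE 0.20). Both rose in every embryo. Nodal, Eomes and Apela were lower, Nodal with 2 UMIs in all members, all of them in embryo 2. The study used Apela as a marker of definitive endoderm. The calls of Eomes were lost without any 1 embryo (-1.02 to -1.37), and those of Nodal without embryo 1 (-3.01) or 3 (-3.98), where the list counted 2 lower. Cyp26a1, the enzyme that degrades retinoic acid, had 11.3, 13.7 and 13.7 CPM against 31.2, 26.7 and 26.8 (-1.12, SE 0.11).

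In the retinoic acid pathway, 6 of 19 genes were higher and 2 lower (median -0.03). Aldh1a2 (chr9:71215789-71296243), which makes retinoic acid, had 641, 437 and 431 CPM in members and 114, 73.0 and 70.3 in other barcodes (2.59, SE 0.21, edgeR adjusted p = 0.00027), and it had a UMI in 87.4% of members, 28.9% of other barcodes and 5.69% of erythroid-type barcodes (72.5, 15.8 and 2.04% after thinning). The retinol transporter Stra6 and the binding protein Crabp1 rose by 1.30 and 1.29. The nuclear receptors Rxrb (0.35) and Rxrg (0.67) were also higher, the former not called without any 1 embryo (0.30 to 0.38) and the latter not without embryo 2 (0.57) or 3 (0.64). The retinol carrier Rbp4 was lower beside Cyp26a1, by 3.28 on the log2 scale (not called without embryo 3), and Rdh10 and Aldh1a3, which act in synthesis, and the binding protein Crabp2 did not pass (-0.04, -0.84 and 0.25). Without embryo 2 or 3 the list counted 4 higher, and with the embryo as a block 7 higher and 5 lower.

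Among Hox and Cdx genes, which encode position along the body axis, 16 of 35 were higher (median 0.50). Among those that passed were Hoxa2 to Hoxa5, Hoxb1 to Hoxb5, Hoxc4, Hoxd1, Hoxd3, Hoxd4, Cdx1 and Cdx2. Hoxb1 (chr11:96365752-96368256) had 245, 167 and 179 CPM in members and 77.0, 44.4 and 58.0 in other barcodes (1.75, SE 0.20), and Hoxa5 had 29.8, 26.9 and 27.5 against 8.71, 7.44 and 8.40 (1.81, SE 0.10). Hoxb9 (chr11:96271457-96276595) had 18.1, 29.3 and 13.7 CPM against 15.1, 20.5 and 14.4, and its groups overlapped (0.30, SE 0.25, edgeR adjusted p = 0.51). Neighbouring Hox genes overlap with transcripts on either strand, and Hoxd4 is the symbol of more than 1 feature in the files, so its count is uncertain. Without embryo 3 the count was 11, where Hoxd4 (1.78) was among those not called. Cdx2 was lost without embryo 2 (0.43) or 3 (0.64), Hoxc4 without embryo 1 (1.25) or 3 (1.32) and Hoxd1 without any 1 embryo (0.43 to 0.53). Hoxd1 was at -0.051 when members could hold Sox2.

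Genes of the epithelial state were lower throughout the list, 14 of 14 (median -1.53), and those of the mesenchymal state were mixed, with 6 of 19 higher and 1 lower (median 0.00). E-cadherin, Cdh1, had 18.2, 12.3 and 20.1 CPM in members and 47.4, 31.0 and 37.1 in other barcodes (-1.15, SE 0.19, edgeR adjusted p = 0.0062). Epcam had 44.0, 51.8 and 57.9 against 171, 146 and 153 (-1.59, SE 0.11), and the tight junction protein Cldn6 had 9.23, 12.3 and 8.38 against 61.8, 79.4 and 64.6 (-2.78, SE 0.16). N-cadherin, Cdh2, rose by 1.20, and the transcription factors Snai1, Zeb1 and Zeb2, the receptor Pdgfra and the matrix protein Fn1 rose by 1.30, 0.59, 0.65, 1.20 and 0.69. The chemokine Cxcl12 fell by 1.31, and with the embryo as a block 7 mesenchymal genes were higher and 5 lower. Without embryo 3 the lists counted 8 lower and 2 higher, and the calls of Cdh1 (-1.30), Zeb1 (0.60), Zeb2 (0.70), Pdgfra (1.22), Fn1 (0.76) and Cxcl12 (-1.41) were among those lost, the last also without embryo 1 (-0.99). When barcodes with Sox2 were allowed as members, an alternative added after seeing the data, the call of Cdh1 was lost as well (-0.40).

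The glucose transporters Slc2a3 and Slc2a1 were lower. Slc2a3 (chr6:122727809-122801640), a high-affinity glucose transporter, had 140.3, 154 and 145 CPM in members and 612, 652 and 591 in other barcodes (-2.05, SE 0.07, edgeR adjusted p = 1e-05), and Slc2a1 had 176, 192 and 222 against 448, 371 and 390.2 (-1.01, SE 0.10). Of 21 glycolysis genes, 7 were lower and 2 higher (median -0.21), the former with Slc16a1, Pdk1, Tpi1, Pfkl and Aldoa, and Ldha was at -0.14 (edgeR adjusted p = 0.11). With the embryo as a block 14 were lower. Without embryo 1 or 2, Pfkl (-0.22 and -0.32) and Aldoa (-0.21 and -0.26) were not called. Of 28 cell cycle genes, 2 were higher and 1 lower, and the inhibitor Cdkn1a rose by 0.51, against 10 higher and 2 lower with the embryo as a block. In the BMP and Hedgehog lists, 9 of 21 were lower, among them the BMP targets Id2 (-0.96) and Id3 (-0.34) and the ligands Bmp4 and Bmp7, and the Hedgehog co-receptors Gas1 and Boc were higher, a count that was 6 with the embryo as a block. Without embryo 3 the counts were 3 lower and 1 higher for glycolysis and 1 lower for BMP and Hedgehog, where Id3 was not called (-0.31); the latter count was 5 without embryo 1 and 3 without embryo 2 (Id3 -0.41). Boc was not called without any 1 embryo (0.71 to 0.81), Bmp4 without embryo 2 (-0.64) or 3 (-0.50), nor Bmp7 without embryo 3 (-0.83). The call of Cdkn1a was lost without embryo 3 (0.49), that of Bub1, the other cell cycle gene that was higher, without any 1 embryo (0.24 to 0.29), and that of the lower gene Cdkn1c without embryo 2 (-0.76) or 3 (-0.83).

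By size alone, the 20 largest rises among genes with at least 20 CPM in members included several already named and genes with no list of their own. The neuropeptide galanin, Gal, had 47.4, 33.6 and 79.1 CPM in members and 8.49, 3.79 and 11.5 in other barcodes (2.78, SE 0.42). The serine protease Htra1 had 28.4, 17.9 and 27.8 against 4.77, 3.23 and 5.05 (2.54, SE 0.22), and the co-receptor Gfra3 had 28.6, 44.3 and 25.3 against 5.93, 6.55 and 5.32 (2.48, SE 0.20). The groups did not overlap in any of these 3 genes. Pik3c2b, Sh3gl3, Rnf213, Rftn1, Car3, Fabp7, Chst7, Lrp8 and Pdlim4 were also in the set, with log2 fold changes from 1.92 to 2.43. Of the 20 calls, 19 held without each embryo in turn. The 10 largest falls, from -4.06 for the transporter Slc2a2 to -3.28 for Pla2g12b, included Lgals2, Car7 and S100g and, as genes of visceral endoderm and gut, Apoa4, Apoa1 and Rbp4, and Rbp4 had 27.5, 133 and 21.1 CPM in members against 261, 913 and 576. All 10 of these calls were lost without embryo 3, where Rbp4 was at -2.88 and Slc2a2 at -3.81. Without embryo 2, Rbp4 was at -4.07 and Apoa1 at -4.09, against -3.28 and -3.29 with all embryos.

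Markers of other cell types were low but present in the sums of presomitic mesoderm cells, and their part in the results was not tested. The 7 endoderm markers were all lower, with a summed level of 176, 512 and 107 CPM in members against 1257, 2939 and 2170.2, and Spink1 was the most abundant (mean 102). Neural plate markers fell in 6 of 7 cases (27.8, 39.9 and 46.4 CPM against 171, 111 and 121, with Pou3f1 the most abundant in members), notochord and left-right organizer markers in 6 of 7 (8.64, 9.46 and 8.38 against 45.0, 38.5 and 32.6, with Cfap126 the most abundant), endothelial markers in 5 of 7 (52.8, 38.7 and 65.0 against 92.9, 99.6 and 119, with Etv2 the most abundant) and surface ectoderm markers in 4 of 6 (130.2, 153 and 190.2 against 389, 419.6 and 394, with Krt8 the most abundant). Erythroid markers summed to 0.411, 62.0 and 12.9 CPM in members and 0.678, 1253 and 168 elsewhere, with Hbb-bh1 as the most abundant, so that members and the rest of an embryo rose and fell together. Cardiac markers (75.0, 148 and 108 against 119, 199.7 and 111, with Myl7 the most abundant) and lateral plate markers (172, 208 and 215 against 223, 265 and 294, with Hand1 the most abundant) were closer to the rest, with 1 of 6 and 3 of 7 lower. Primordial germ cell markers summed to 8.99, 6.45 and 11.2 CPM against 15.9, 12.2 and 15.1, with Prdm1 lower. Intermediate mesoderm markers were the exception at 21.6, 33.5 and 17.9 against 16.7, 16.5 and 14.9, where Osr1 rose by 1.499 and Pax2 fell. Every marker of these lists had a UMI in some member. Members were chosen to hold no UMI of Sox2, Noto or Foxj1, so genes that go with these are part of that definition. When members could hold Sox2, Pou3f1 was not lower (log2 fold change 0.015). Without embryo 3 the counts were 5 for endoderm, 4 for neural plate, 2 for notochord and organizer and 2 for surface ectoderm, and all endothelial, cardiac and germ cell calls were lost. The cardiac call, Nkx2-5, was also lost without embryo 1 (-0.74) or 2 (-0.89). The notochord and organizer count was 3 without embryo 1, the endothelial count 2 without embryo 2, and the lateral plate count 1 without embryo 2 or 3. With the embryo as a block, all 7 erythroid markers and 3 of the 6 cardiac markers were lower.

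**Figure D2:**
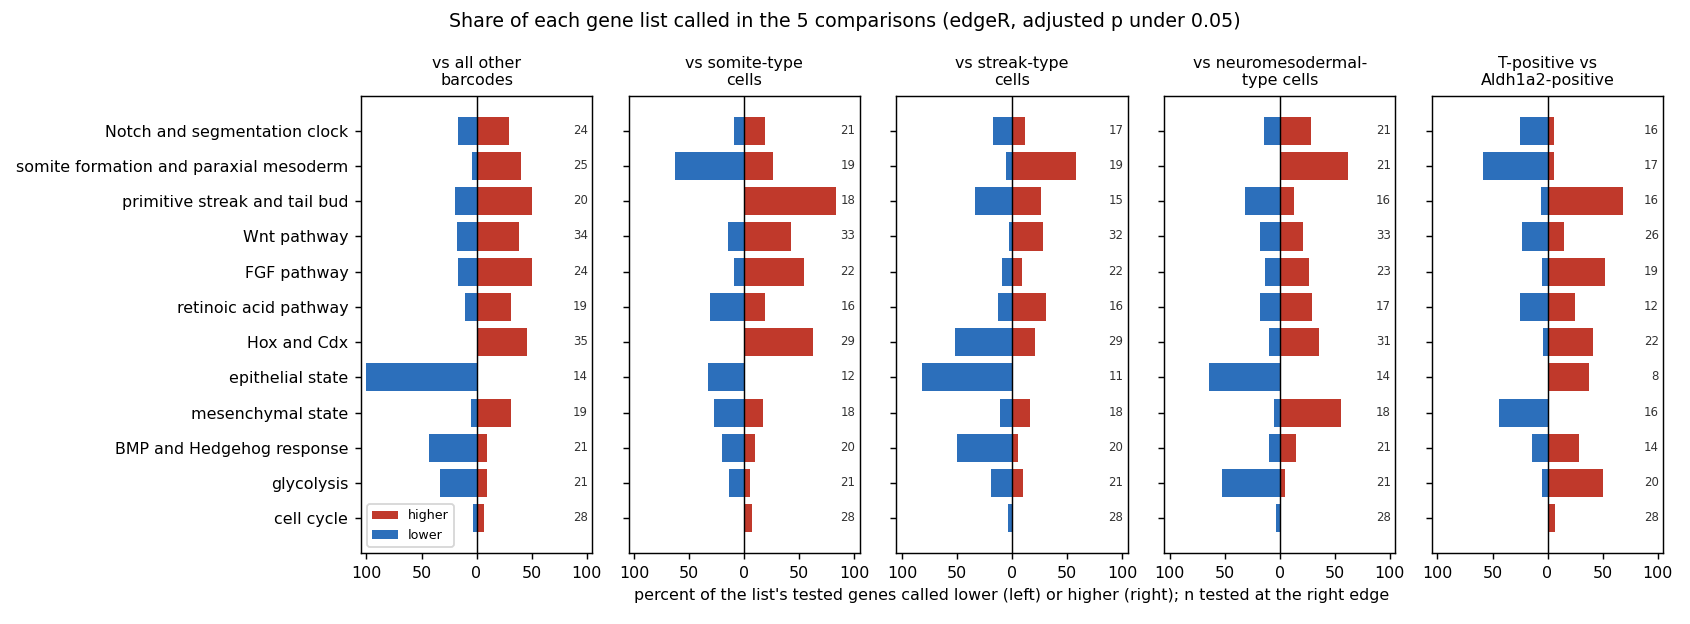
Percent of the tested genes of each of 12 lists that passed an adjusted p of 0.05 lower (blue, left) or higher (red, right) in the 5 comparisons, with the number of genes tested at the right edge of each panel. The list of the epithelial state reaches 100 percent lower against all other barcodes, and the lists of somite formation and of streak and tail bud genes change sides between comparisons.

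The next 3 comparisons set presomitic mesoderm against 3 related cell classes. They share the sums of the same members, so that they are not independent of each other. Each neighbouring class was defined by a pair or trio of transcripts and the absence of Tbx6, Noto and Foxj1, and genes that accompany those transcripts come along with the definition. The genes that defined a class are described only, with no test.

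Somite-type cells, named for their defining transcripts, were the 826 barcodes (311, 295 and 220 in the 3 embryos) with UMIs of Meox1 and Tcf15 and none of Tbx6 or Sox2. Their median depth was 28397, 14587 and 17675.5 UMIs. UMIs of both Meox1 and Tcf15 were also found in 156, 97 and 87 members of embryos 1, 2 and 3. Only the UMIs of Tbx6 kept these members out of the somite-type class. Of 11451 genes, 812 (7.09%) passed, 449 higher in presomitic mesoderm (3.92%) and 363 lower (3.17%), without overlap of the embryos in 10.9 and 9.83% of genes, and 1997 passed with the embryo as a block. Without embryos 1, 2 and 3 there were 361, 545 and 373. Caudal signals were higher in presomitic mesoderm. Wnt3a had 23.0, 16.1 and 14.95 CPM in presomitic mesoderm and 1.43, 0.546 and 1.29 in somite-type cells (log2 fold change 3.98, SE 0.29, edgeR adjusted p = 2.8e-05), Fgf4 had 24.6, 18.5 and 18.0 against 0.204, 1.64 and 1.5003 (4.45, SE 0.38), and Fgf17 had 13.5, 21.8 and 14.4 against 1.02, 1.82 and 2.36 (3.35, SE 0.31). Fgf8 was higher by a smaller step, 79.9, 89.2 and 75.0 against 29.5, 35.2 and 40.1 (1.23, SE 0.12). In none of the 4 did an embryo of one class reach the other class. The fitted value for Fgf4 rests on 18 UMIs in somite-type cells. Of 18 streak and tail bud genes 15 were higher, among them T (2.65), Mixl1 (3.03) and Cdx1 (2.46), as were 12 of 22 FGF genes with 2 lower, 14 of 33 Wnt genes with 5 lower and 18 of 29 Hox and Cdx genes. The Hox and Cdx count was 9 without embryo 3 and the count of lower Wnt genes 3 without embryo 1 or 3. Without embryo 1, Fgf4 was at 3.53, and without embryo 2 at 5.06.

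Notch genes divided between the classes. Lfng had 25.7, 13.8 and 18.6 CPM in presomitic mesoderm and 5.10, 6.56 and 3.86 in somite-type cells (1.92, SE 0.25, edgeR adjusted p = 0.00094), and Hes5 had 16.5, 10.2 and 9.22 against 1.63, 2.19 and 2.36 (2.62, SE 0.29). Neither overlapped. Nrarp and Notch1 were higher by 0.92 and 0.82, and Hes1 and the receptor Notch2 lower by 0.53 and 0.85 on the log2 scale. All 4 of these calls were lost without embryo 3 (0.93, 0.85, -0.53 and -0.71), those of Nrarp and Hes1 also without embryo 1 (0.90 and -0.45), and that of Nrarp without embryo 2 (0.95). With the embryo as a block 7 of the 21 Notch genes were higher and 5 lower, against 4 and 2 without it. Mesp2 had 2.00, 2.55 and 0.559 CPM against 2.45, 2.55 and 3.86 and Ripply2 4.82, 14.6 and 1.96 against 5.198, 11.7 and 3.00, so both overlapped (edgeR adjusted p = 0.48 and 0.99).

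Of the 19 tested genes of somite formation and paraxial mesoderm, 12 were lower in presomitic mesoderm and 5 higher (3, 3 and 2 higher without embryos 1, 2 and 3). Cer1, a secreted inhibitor of Nodal and BMP that marks the newest somites, had 7.29, 6.00 and 4.19 CPM in presomitic mesoderm and 51.1, 32.6 and 36.4 in somite-type cells (-2.75, SE 0.21, edgeR adjusted p = 4.3e-05). Twist1 had 63.7, 64.5 and 67.8 against 225, 184 and 174 (-1.58, SE 0.10), Foxc2 54.3, 39.6 and 41.9 against 141, 118 and 98.6 (-1.39, SE 0.14), and the dermomyotome factor Pax3 4.82, 9.76 and 4.75 against 22.3, 37.5 and 19.7 (-2.10, SE 0.31). Each of these 4 was lower in every embryo. Tbx18 and Uncx, factors of the rostral and caudal somite compartments, had 16 and 4 UMIs in all presomitic mesoderm cells (-3.11 and -4.03). Foxc1, Pcdh8 and Aldh1a2 did not pass, at -0.23, 0.18 and 0.52. Of the 8 genes named by size in each direction, Gal (4.07), Klf5 (2.94), Hoxaas3 (2.93), Fabp7 (2.78), Evx1 (2.72) and Lrp8 (2.61) were higher beside Fgf4 and T, and Bik (-3.44), Tbx1 (-3.21), Irx5 (-2.26), Prrx2 (-2.21), Prrx1 (-2.16), Igfbp5 (-2.16) and Sfrp5 (-2.14) lower beside Cer1. Tbx1, Prrx1 and Prrx2 are also known from head and pharyngeal mesoderm, and somite-type cells held 59.7, 50.3 and 44.8 CPM of Tbx1, 62.4, 58.1 and 57.2 of Prrx1 and 233, 198 and 200.2 of Prrx2. The class may thus hold cranial mesoderm beside somites, whose part in these values was not tested. Hoxaas3 overlaps Hox genes on the other strand, and its call was lost without embryo 3 (3.11). The retinoic acid receptor Rarb and the retinaldehyde reductase Dhrs3 were lower by 1.44 and 1.92.

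Streak-type cells were named for the primitive streak, which feeds the presomitic mesoderm. They were the 266 barcodes (80, 86 and 100) with UMIs of T and Mixl1 and none of Tbx6 or Sox2. Their median depths were 26933.5, 11712.5 and 15975.5 UMIs. Of 10826 genes, 675 (6.23%) passed, 275 higher in presomitic mesoderm (2.54%) and 400 lower (3.69%), without overlap in 10.2 and 12.3% of genes, and 1415 passed with the embryo as a block. Without embryos 1, 2 and 3 there were 290, 423 and 312. Of 19 paraxial genes, 11 were higher and 1 lower. Aldh1a2 had 641, 437 and 431 CPM in presomitic mesoderm and 67.8, 47.0 and 80.1 in streak-type cells (2.94, SE 0.19, edgeR adjusted p = 6.1e-06), Meox1 had 137, 103 and 112 against 24.2, 17.2 and 23.3 (2.43, SE 0.15), and Foxc1 had 69.5, 59.0 and 59.5 against 9.12, 8.95 and 17.5 (2.42, SE 0.20). No embryo overlapped. Pcdh8 had 8 UMIs in all streak-type cells (fitted 4.38). Lfng and Notch1 were higher by 1.92 and 1.29, whereas Hes1, Hey1 and Dlk1 were lower by 1.29, 1.66 and 1.53. Mesp1, which marks nascent mesoderm, was the paraxial list member that was lower, at 60.1, 50.6 and 44.7 CPM against 113, 145 and 152 (-1.37, SE 0.14).

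Against streak-type cells the caudal ligands Fgf8, Wnt3a and Fgf17 did not pass, whereas Wnt8a was higher (0.87, not called without embryo 1 at 0.64 or 3 at 0.88) and Wnt5b lower (-0.85, not called without embryo 2 at -0.71). Fgf8 had 79.9, 89.2 and 75.0 CPM in presomitic mesoderm and 73.4, 80.6 and 98.1 in streak-type cells (-0.03, SE 0.13, edgeR adjusted p = 0.95), and Wnt3a and Fgf17 were at 0.16 (SE 0.23) and -0.47 (SE 0.30) with overlapping embryos. Of 20 BMP and Hedgehog genes 10 were lower, all of them of the BMP pathway, and the Hedgehog co-receptor Gas1 was higher (1.17). Of 7 lateral plate and allantois markers 4 were lower, namely Tbx4, Hand1, Bmp4 and Foxf1, with a summed level of 172, 208 and 215 CPM against 585, 562 and 536, with Hand1 the most abundant in members. Tbx4 (-1.87) was not called without embryo 1 (-1.32) or 3 (-1.98). The part of lateral plate and allantois cells in these values was not tested. Bmp4 had 22.9, 28.7 and 28.6 CPM against 82.5, 80.6 and 101.3 (-1.73, SE 0.14), its target Msx2 20.9, 19.1 and 12.4 against 80.1, 61.9 and 57.3 (-1.90, SE 0.18), and Hand1, a factor of lateral and extraembryonic mesoderm, 81.3, 93.5 and 103 against 327, 301 and 299 (-1.73, SE 0.10). Every presomitic value was below every streak-type value in these 3 genes. Of 11 epithelial genes, 9 were lower, with Krt19 at -2.43 and Epcam at -1.10, the latter not called without embryo 1 (-0.92). The count of the list was 4 without embryo 1 and 6 without embryo 2. Endoderm markers moved with it, 5 of 7 lower (Trh, Foxa2, Sox17, Cldn6 and Spink1, and 3 without embryo 1), with a summed level of 176, 512 and 107 CPM against 903, 1750.4 and 981, with Spink1 the most abundant in presomitic mesoderm, and their part in the result was not tested. By size, Tubb4a (2.62), Foxb1 (2.51), Pcdh19 (2.18) and Tubb3 (2.18) were the other genes higher in presomitic mesoderm, and Trh (-3.00), Trap1a (-2.94), Rhox5 (-2.73), Hoxa7 (-2.65), Car7 (-2.59), Gpx2 (-2.48) and Ctsh (-2.35) led the lower ones, of which Car7 and Ctsh were not called without embryo 3 (-2.19 and -2.11).

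Neuromesodermal-type cells were named for progenitors that can give both spinal cord and paraxial mesoderm. They were the 1240 barcodes (456, 353 and 431) with UMIs of T, Sox2 and Nkx1-2 and none of Tbx6. They were deeper than the members, at 35402, 22560 and 29411 UMIs. The top 6% of Scrublet scores held 150 of them (12.1%), against 5.19% of the members. Of 12393 genes, 1366 (11.0%) passed, 654 higher in presomitic mesoderm (5.28%) and 712 lower (5.75%), without overlap in 14.7 and 12.6% of genes, and 3257 passed with the embryo as a block. Without embryos 1, 2 and 3 there were 556, 867 and 670, and 491 when members could hold Sox2. Mesodermal and mesenchymal genes were higher, 13 of 21 paraxial genes and 10 of 18 mesenchymal genes, the latter with 1 lower. Aldh1a2 had 641, 437 and 431 CPM against 32.1, 69.8 and 47.2 (3.34, SE 0.26, edgeR adjusted p = 8.9e-05), Meox1 137, 103 and 112 against 10.0, 26.1 and 25.8 (2.52, SE 0.30), and Cited1, a transcriptional coactivator, 518, 595 and 447 against 37.5, 118 and 82.2 (2.71, SE 0.33). The 3 genes did not overlap in any embryo. Snai1, Pdgfra and Fn1 were higher by 1.70, 1.71 and 1.40, and Lfng, Notch1, Hes5 and Ripply2 by 2.01, 1.91, 1.40 and 2.67, the last not called without embryo 1 (2.88) or 3 (2.71).

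Neural genes were lower in presomitic mesoderm, in 6 of the 7 neural plate markers. Sox3, a partner of Sox2, had 4.76, 7.51 and 7.69 CPM against 65.6, 39.8 and 39.8 in neuromesodermal-type cells (-2.96, SE 0.25, edgeR adjusted p = 0.0001), Sox1 was at -3.42 (-2.50 without embryo 1 and -4.16 without embryo 3) and the neural repressor Hes3 at -2.65. Since the 2 classes were separated by Sox2 itself, genes that go with Sox2 are part of that definition. Fgfbp3 (-3.02), Pim2 (-2.86), Eras (-2.78), Slc7a3 (-2.76, and -2.15 without embryo 1), Pcsk1n (-2.43) and Bst2 (-2.29) were the other genes named by size, and those on the higher side included Htra1 (3.504), Gal (2.92), Pcdh8 (2.87), Pcdh19 (2.84) and Fam212a (2.69). Of 14 epithelial genes, 9 were lower, with Cdh1 at 18.2, 12.3 and 20.1 CPM against 69.1, 38.7 and 48.1 (-1.64, SE 0.22). Surface ectoderm markers were lower in 4 of 6 cases (Dlx5, Grhl2, Tfap2a and Grhl3, and 2 without embryo 1), with a summed level of 130.2, 153 and 190.2 CPM against 186, 225 and 188, with Krt8 the most abundant in members, and endoderm markers in 3 of 7 (Trh, Foxa2 and Cldn6), at 176, 512 and 107 against 222, 598 and 336, with Spink1 the most abundant. Their part in the epithelial values was not tested. The caudal ligands were divided. Fgf4, Fgf3 and Fgf15 were higher by 1.97, 1.95 and 1.54 and Wnt5a by 0.58 (not called without embryo 2 at 0.57), Wnt8a was lower by 0.89 on the log2 scale (not called without embryo 1 at -0.81 or 2 at -0.82), and Fgf8 at 0.39 (edgeR adjusted p = 0.055, and called at 0.41 with the embryo as a block), Fgf17 at -0.01 and Wnt3a at 0.30 did not pass. Of 21 glycolysis genes, 11 were lower and 1 higher, a count that was 5 lower without any 1 embryo and 17 with the embryo as a block. Slc2a3 had 140.3, 154 and 145 CPM against 458, 399 and 368 (-1.50, SE 0.09), whereas Ldha moved less, at 1733, 1815 and 1732 against 2222, 2135 and 2063 (-0.30, SE 0.06), a call lost without any 1 embryo (-0.26 to -0.33).

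The level of Hoxb genes in presomitic mesoderm was above that of its neighbours for Hoxb1, and between them for Hoxb9. Hoxb1 had 245, 167 and 179 CPM in presomitic mesoderm, above neuromesodermal-type (107, 89.0 and 87.0), streak-type (95.2, 94.0 and 98.1) and somite-type cells (120.2, 70.3 and 105.2), with log2 fold changes of 1.05, 1.05 and 0.99, all 3 called, the last not without embryo 3 (1.11). Hoxb4 had 77.9, 70.6 and 66.0 CPM in presomitic mesoderm and 58.5, 56.0 and 53.5 in neuromesodermal-type cells, 50.4, 48.5 and 49.3 in streak-type cells and 6.32, 20.04 and 16.5 in somite-type cells (0.34, 0.55 and 2.41, all called). The first of these calls was lost without any 1 embryo (0.30 to 0.36) and changed sign after thinning to equal depth (-0.039), and the second without embryo 1 (0.49) or 2 (0.56). At the other end, Hoxb9 had 18.1, 29.3 and 13.7 CPM in presomitic mesoderm, below neuromesodermal-type (44.4, 74.5 and 34.2) and streak-type cells (55.5, 64.9 and 56.2) and above somite-type cells (3.06, 11.1 and 8.14), with log2 fold changes of -1.35, -1.53 and 1.53 (edgeR adjusted p = 0.019, 0.0017 and 0.048). The first and the last were lost without embryo 1 (-1.34 and 1.15) or 3 (-1.37 and 1.84). Hoxb6 was at 0.15, -1.77 and 1.04 in the same order, of which the second was called. In the Hox and Cdx list as a whole, 6 of 29 genes were higher and 15 lower against streak-type cells, and the lower ones included Hoxb6, Hoxb8, Hoxb9, Hoxa7, Hoxa10 (-2.24), Hoxa11 (-3.22), Cdx2, Cdx4 and Hoxd1. Hoxa10 and Hoxa11 are also expressed in the allantois, whose marker Tbx4 was lower as well (-1.87), and the part of such cells in these values was not tested. Without embryos 1 and 3, 10 and 8 were lower, and Hoxb8 (-1.04 and -1.001) and Hoxd1 (-0.89 and -0.94) were not called.

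**Figure D3:**
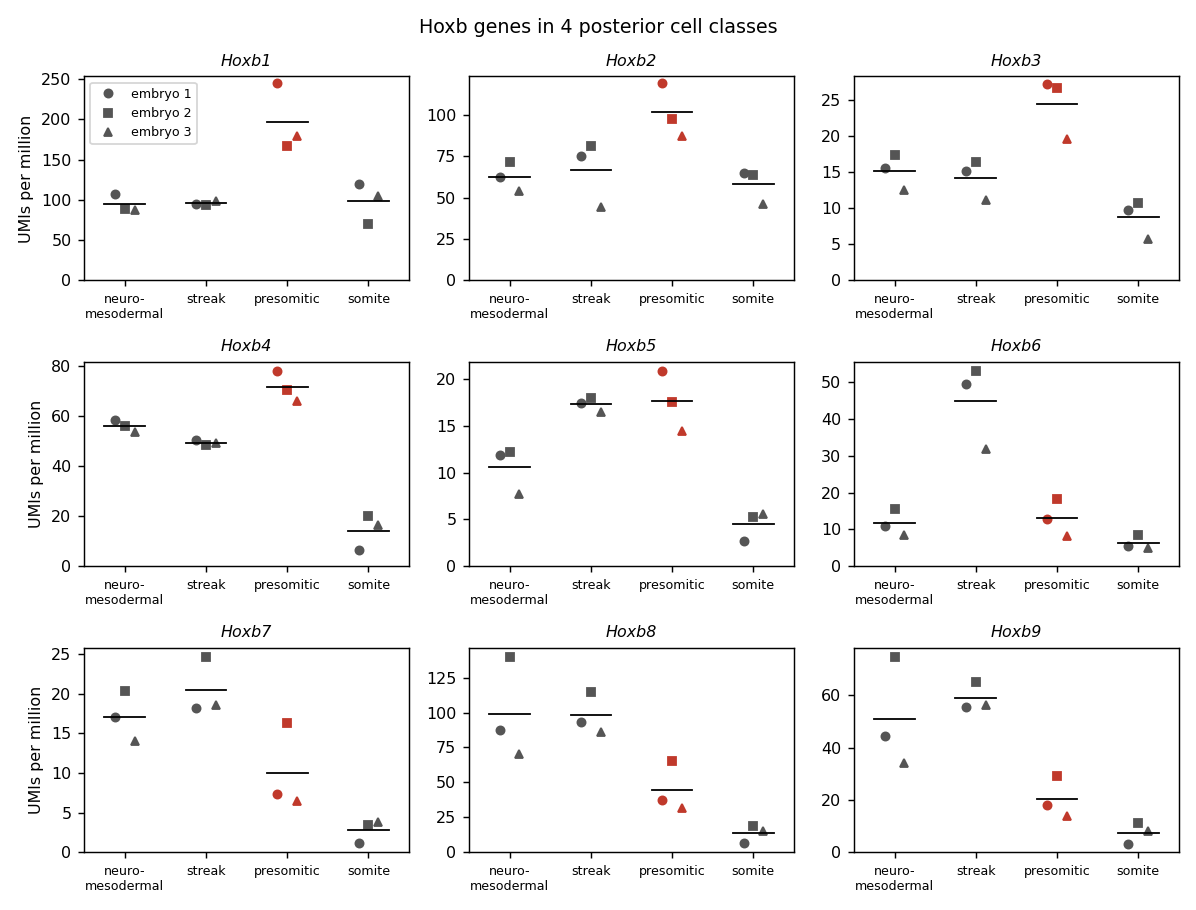
Levels of Hoxb1 to Hoxb9 in CPM in neuromesodermal-type, streak-type, presomitic (red) and somite-type cells, 1 point per embryo with a line at the mean. Presomitic mesoderm holds the highest mean of Hoxb1 (197), and streak-type cells that of Hoxb9 (58.9).

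Presomitic mesoderm cells were not uniform. They were divided by T, which marks the caudal end, and Aldh1a2, which marks the rostral end. Genes that go with T or with Aldh1a2 are part of this division, so their differences below describe it and are not independent of it. A UMI of T and none of Aldh1a2 was found in 151 cells (60, 64 and 27), a UMI of Aldh1a2 and none of T in 354 cells (147, 131 and 76), both in 776 and neither in 10. Median depths were 23324, 13226.5 and 17959 UMIs in T-positive cells, 20251, 12072 and 16383 in Aldh1a2-positive cells and 27289, 16689 and 19303 in cells with both. Between the T-positive and the Aldh1a2-positive cells, 444 of 8624 genes (5.15%) passed, 205 higher in T-positive cells (2.38%) and 239 lower (2.77%), without overlap in 9.00 and 10.6% of genes, and 777 passed with the embryo as a block. Without embryos 1, 2 and 3 there were 272, 314 and 297. The T-positive sums of embryo 3 rest on 27 cells. In the erythroid-type barcodes that served as the background, T had a UMI in 2.90% pooled (5.62% in embryo 3) and Aldh1a2 in 5.69% pooled. Among the rule genes, which are described only, mean Hes7 was 130 CPM in T-positive cells, 122 with both and 81.7 in Aldh1a2-positive cells, Msgn1 13.02, 11.4 and 8.89, and Dll1 72.1, 103 and 155.

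In T-positive cells, genes of the FGF and streak lists were higher, while the Wnt list moved in both directions. Fgf17 (chr14:70636203-70642268) had 48.9, 52.7 and 45.2 CPM in T-positive cells of embryos 1, 2 and 3 and 1.70, 5.29 and 2.05 in Aldh1a2-positive cells (4.09, SE 0.31, edgeR adjusted p = 5.2e-07). Wnt3a had 57.7, 39.8 and 37.7 against 4.54, 6.25 and 2.74 (3.33, SE 0.28), and Fgf8 140.5, 133 and 105.5 against 54.0, 79.8 and 46.5 (1.11, SE 0.18). In all 3 genes every T-positive value was above every Aldh1a2-positive value. Of 19 FGF pathway genes, 10 were higher and 1 lower (median 1.11), with the target Etv4 at 2.05, the phosphatase Dusp4 at 1.99 and Spry4 at 1.41, the last not called without embryo 1 (0.96), and the receptor Fgfr1 was lower by 1.20. Of 16 streak and tail bud genes, 11 were higher, among them Mixl1 (3.70) and Nkx1-2 (3.25), and Lhx1 was lower by 2.30. Wnt5b (2.40) was higher, but among 26 Wnt genes 4 were higher and 6 lower (2 and 3 without embryo 1, 4 and 3 without embryo 3, and 7 and 7 with the embryo as a block), the latter including the receptor Fzd2 (-1.54), and Rspo3 did not pass (-0.13). Cyp26a1 was also not called (0.31, SE 0.32).

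Hoxb6 to Hoxb9 were higher in T-positive cells, whereas Hoxa7, Hoxa10 and Hoxc8 did not pass. Hoxb9 had 76.5, 85.5 and 56.5 CPM in T-positive cells and 1.42, 5.29 and 2.74 in Aldh1a2-positive cells (4.68, SE 0.31, edgeR adjusted p = 1.4e-07), the largest rise among genes named by size. Hoxb8 was higher by 3.66, Hoxb7 by 2.69 and Hoxb6 by 2.01, the last not called without embryo 1 (1.55) and Hoxb7 not without embryo 3 (2.59), whereas Hoxb1 to Hoxb4 lay between -0.23 and 0.18 and did not pass. Without embryos 1 and 2, Hoxb8 was at 2.98 and 4.75, Hoxb7 at 2.00 and 4.34, and Fgf17 at 3.63 and 4.68. The caudal factors Cdx2 and Cdx4 were higher by 1.70 and 2.58. Of 22 Hox and Cdx genes, 9 were higher, with Hoxa3, Hoxc4 and Hoxd9 among them, and 1, Hoxa2, was lower (-1.19, not called without embryo 2 at -0.85 or 3 at -1.32), and 6 were higher without embryo 1. Sct, the gene of the hormone secretin, and Evx1os, an RNA antisense to Evx1, were named by size at 3.29 (2.67 without embryo 1) and 3.27 (4.12 without embryo 2). The strand setting of the counting was not given in the sources used here, so the counts of Evx1os are uncertain.

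Several somite genes were higher in Aldh1a2-positive cells. Meox1 had 10.0, 2.98 and 1.88 CPM in T-positive cells and 315, 178 and 229.8 in Aldh1a2-positive cells (-5.24, SE 0.32, edgeR adjusted p = 1e-07), and Foxc2 had 6.90, 2.98 and 3.77 against 106, 65.9 and 69.1 (-3.98, SE 0.32). Without embryo 1, Meox1 was at -6.23. Pcdh8 had 1 UMI in all T-positive cells (0.627, 0 and 0 CPM) and 78.4, 67.3 and 39.0 CPM in Aldh1a2-positive cells, and Ripply2 had 3 UMIs (1.88, 0 and 0 CPM) against 15.1, 29.3 and 6.84 CPM. In each of the 4 genes the T-positive values lay below all Aldh1a2-positive values. Tcf15, Foxc1 and Pcdh19 were lower in T-positive cells by 3.58, 3.19 and 2.47. They were among 10 of 17 paraxial genes that were lower (median -1.94), with Twist1 at -1.94, Efnb2 at -2.04 and Epha4 at -0.71. The call of Epha4 was lost without embryo 1 (-0.42) or 3 (-0.76), and its value was 0.057 after thinning. Without embryo 1, Tcf15 was at -4.20, Twist1 at -2.88 and Efnb2 at -1.31. Fst, an inhibitor of activin, was the 1 paraxial gene that was higher (400.8, 410.5 and 407 CPM against 185, 134 and 174). Synm, Wfdc21, Kcnk3 and the muscle actin Actc1 were named by size with 3, 1, 4 and 5 UMIs in T-positive cells.

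Notch genes leaned to the rostral side, with 4 of 16 lower in T-positive cells and 1 higher. Notch1 had 37.6, 25.8 and 50.9 CPM in T-positive cells and 135, 91.8 and 93.7 in Aldh1a2-positive cells (-1.56, SE 0.21, edgeR adjusted p = 0.00019). Hes5 had 3.14, 3.98 and 5.65 against 29.0, 11.5 and 11.6 (-2.25, SE 0.50, edgeR adjusted p = 0.011), without overlap, and was not called without embryo 1 (-1.32), where the list counted 2 lower. Maml3 was lower by 1.03 (not called without embryo 2, -0.96) and Dlk1 higher by 1.16. Lfng had 13.2, 6.96 and 11.3 CPM against 24.1, 16.8 and 18.5, with no overlap of the embryos and no call (-0.90, SE 0.29, edgeR adjusted p = 0.11, and 0.027 with the embryo as a block). Hes1 and Nrarp did not pass. Cells with both T and Aldh1a2 had intermediate mean levels of most of these genes, with 16.6 CPM of Fgf17, 18.1 of Wnt3a, 18.4 of Hoxb9, 94.1 of Meox1, 22.3 of Pcdh8 and 11.6 of Hes5, and 20.6 of Lfng was close to the 19.8 of Aldh1a2-positive cells.

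**Figure D4:**
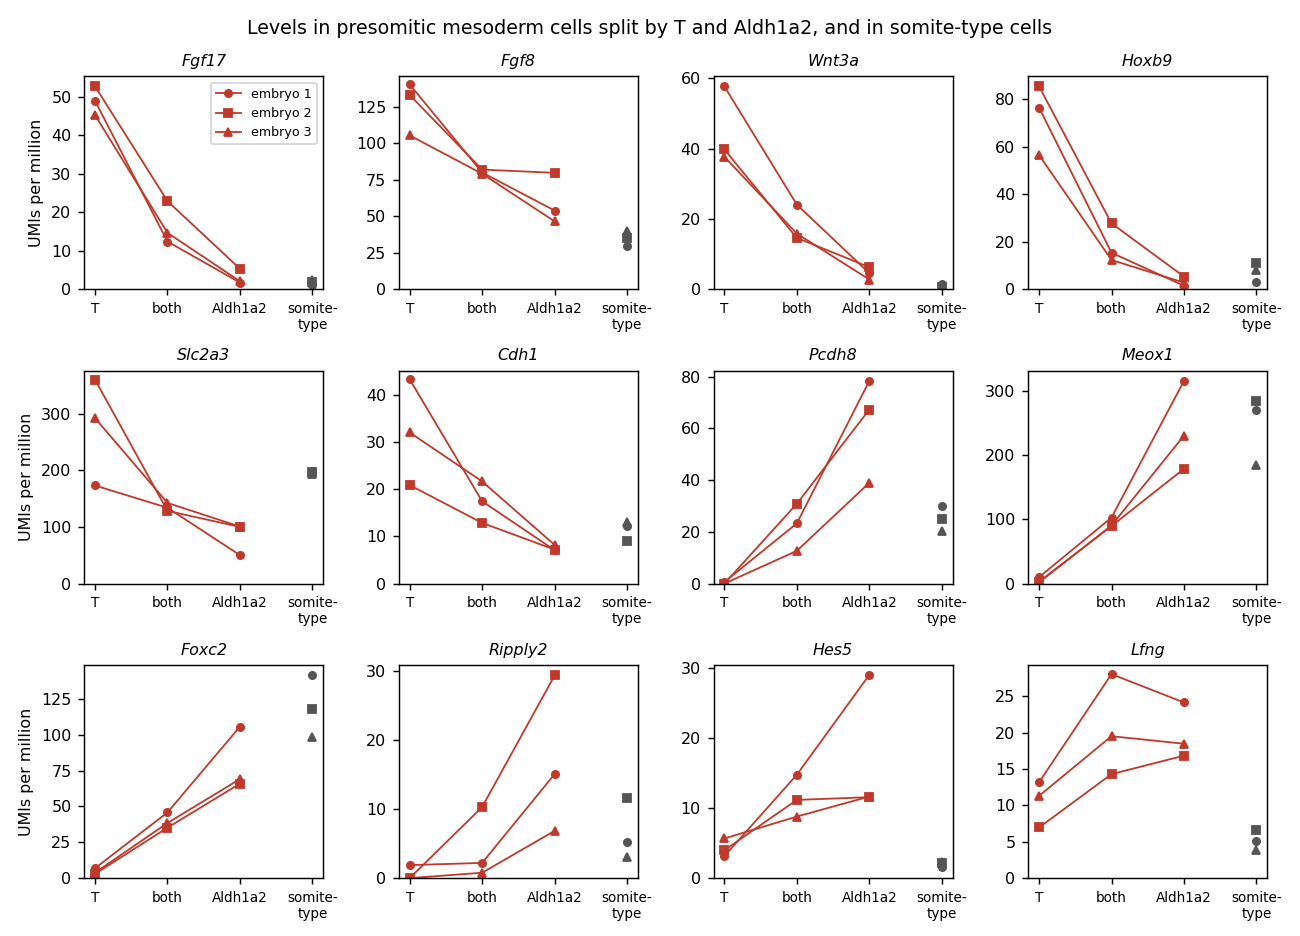
Levels of 12 genes in CPM in presomitic mesoderm cells with T, with both T and Aldh1a2, or with Aldh1a2 (red, 1 line per embryo), and in somite-type cells of the same embryos (grey). Fgf17, Wnt3a and Hoxb9 fall and Meox1, Foxc2 and Pcdh8 rise along the line in all 3 embryos, and Lfng is highest in cells with both in embryos 1 and 3.

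Some genes of the epithelial, mesenchymal and glycolysis lists differed along the same division. Cdh1 had 43.3, 20.9 and 32.0 CPM in T-positive cells and 7.10, 7.21 and 8.21 in Aldh1a2-positive cells (2.17, SE 0.29, edgeR adjusted p = 0.00015), and Epcam and Krt19 were higher by 1.60 and 2.53, which made 3 of 8 epithelial genes (5 without embryo 1, and 6 with the embryo as a block). Of 16 mesenchymal genes, 7 were lower in T-positive cells, among them Pdgfra (-1.52), Twist1 (-1.94), Zeb1 (-1.55), Zeb2 (-0.73) and Fn1 (-0.73). The calls of Zeb1 and Zeb2 were lost without embryo 1 (-1.10 and -0.60), where the list counted 4, and that of Fn1 without embryo 3 (-0.75). Slc2a3 had 173, 359.8 and 292 CPM in T-positive cells and 50.3, 100.01 and 100.6 in Aldh1a2-positive cells (1.75, SE 0.26, edgeR adjusted p = 0.0004). Lactate dehydrogenase A, Ldha, had 2309.8, 2042 and 2023 against 1406, 1588 and 1536 (0.51, SE 0.08). Neither gene overlapped. Of 20 glycolysis genes, 10 were higher and 1 lower (median 0.40), with 6, 5 and 6 higher without embryos 1, 2 and 3. The lower gene was Aldoc, with 3 UMIs in T-positive cells and 34.1, 30.3 and 17.8 CPM in Aldh1a2-positive cells. Aldoa, another aldolase, is the symbol of more than 1 feature, and its count is uncertain.

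**Figure D5:**
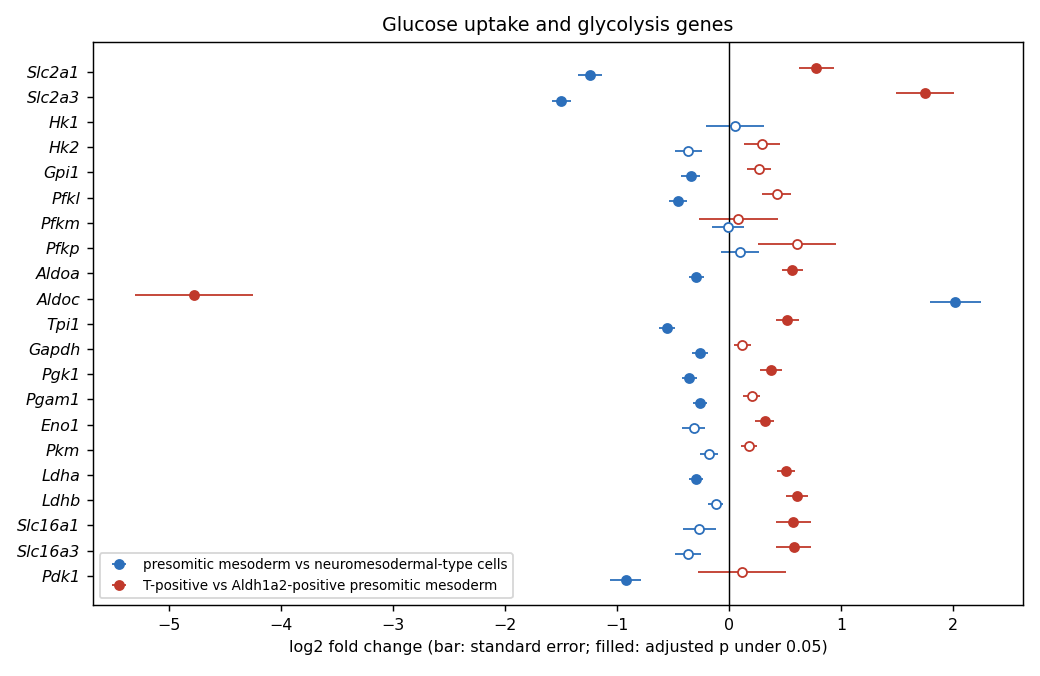
Log2 fold changes (bars: standard error) of glucose uptake and glycolysis genes, with filled points at an adjusted p under 0.05. Blue marks 21 genes between presomitic mesoderm and neuromesodermal-type cells. Red marks 20 genes between T-positive and Aldh1a2-positive presomitic mesoderm cells, where Hk1 was not tested. Slc2a3 lies at -1.50 and 1.75, Ldha at -0.30 and 0.51, and Aldoc has the opposite sign to most genes in both.

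Retinoic acid genes divided as well, with the transporter Stra6 at -2.30, the synthesis enzyme Rdh10 at -1.74 and the binding protein Crabp1 at -0.90 in T-positive cells, and the receptor Rarg and the binding protein Crabp2 at 1.48 and 1.24. The call of Rdh10 was lost without embryo 1 (-1.08) or 3 (-1.68), and its value was -2.37 without embryo 2. Of the BMP and Hedgehog genes, Id1, Id3, Msx1 and Msx2 were higher in T-positive cells and Gas1 and Ptch1 lower, Msx2 not without embryo 1 (1.18) and Ptch1 not without embryo 1 (-0.52) or 3 (-0.61), with Id1 at 334, 335 and 339 CPM against 174, 188 and 194 (0.87, SE 0.10). Of 28 cell cycle genes, Cdkn1a (1.45) and the cyclin Ccnd2 (0.87) were higher. Markers of other tissues also differed, and their part in the division was not tested. The cardiac markers Myl4, Myl7 and Tnni1 were lower in T-positive cells (-3.29, -1.12 and -1.10), with a summed level of 38.3, 47.7 and 62.2 CPM against 83.8, 189.9 and 142, and 1 of the 3 was called without embryo 2 or 3, where Myl7 was at -0.80 and -1.21, Tnni1 at -1.26 and -1.07, and Myl4 at -2.34 and -3.91. Tnni1 was also not called without embryo 1 (-0.99). Lateral plate markers summed to 253, 298 and 292 against 106, 225 and 183, with Hand1 called (1.26, but not without embryo 3 at 1.27). Endoderm markers summed to 82.8, 1125 and 121 against 98.0, 202 and 116, where Ttr was at 424 CPM in T-positive cells of embryo 2 and was not called. Hbb-y, Shh, Pax8 and Wt1 had no UMI in T-positive cells.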

How the data were processed

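Libraries were prepared with the 10x Genomics 3′ v3 chemistry, 1 per embryo, and the deposited matrices hold UMI counts per gene and barcode that the authors made with Cell Ranger 3.1.0 on mm10 with an added EGFP sequence. Filtering of barcodes followed the study: at least 1500 genes, at most 8500 (7500 in embryo 2) and at most 10% mitochondrial UMIs. The clusters that the study removed after this filter were not removed here. No cell annotation was used, and classes were rebuilt from transcripts as described above, so they may differ from clusters of the study. The members, the gene lists and the tests were chosen with earlier results of these data known.

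UMI counts were summed per embryo and class and tested in edgeR 4.0.16 (R 4.3.3) with TMM normalization, its filter on low counts, the quasi-likelihood test and an adjusted p of 0.05 (Benjamini-Hochberg over all genes of a comparison). The SE is the log2 fold change divided by the square root of F. Levels in CPM are not scaled further. Genes were named if they belonged to 22 lists (330 genes) or were the 20 largest rises and 10 largest falls against all other barcodes, and the 8 largest each way in the 4 other comparisons, with a mean of at least 20 CPM in the higher class, the same sign in all 3 embryos and the genes of the rule left out. Positions (GENCODE vM21, GRCm38) matched 385 of 387 genes by identifier. The genes of the rule were not tested. Some genes of the lists are not reported here.

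Both sums of an embryo come from the same animal, which pairs them. Deviations from the group means correlated within embryos 1, 2 and 3 at 0.371, 0.314 and 0.258 against all other barcodes, 0.524, 0.458 and 0.264 against somite-type, 0.357, 0.320 and 0.208 against streak-type and 0.490, 0.456 and 0.365 against neuromesodermal-type cells, and 0.279, 0.188 and 0.143 between T-positive and Aldh1a2-positive cells. The fit without the block is the one reported, and it leaves the pairing out. Genes said not to pass were judged in that fit unless the block is named. More genes passed with the block in every comparison, so not passing does not show equal levels. Blocked totals stand beside it for each comparison, and blocked counts are given for some lists only.

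Alternatives were DESeq2 1.42.0, relative log expression in place of TMM in edgeR, no filter on low counts, the block and each embryo left out. Others were thinning to 5000 UMIs, other marker minimums and no gene maximum. Removal of the top 6% of Scrublet scores (scanpy 1.11.5) or of barcodes under 0.5% mitochondrial UMIs was also tried. Members with Sox2 were an alternative chosen after seeing the data. Counts were also simulated with the same dispersion (0.02) for every gene and no pairing of embryos. Such counts cannot show how the tests perform on the real, paired sums. For the comparison with all other barcodes (15912 genes) they gave back 16.7, 67.2 and 96.9% of genes changed by a log2 fold of 0.5, 1 and 2, with 3.25% of calls false. The false share was 4.86% against somite-type, 2.34% against streak-type and 5.76% against neuromesodermal-type cells and 3.31% between T-positive and Aldh1a2-positive cells.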

Additional observations from a re-analysis of the deposited data

Results flagged for a closer look

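UMIs of EGFP, a reporter sequence that was added to the genome for counting and that no wild-type embryo should carry, numbered 59 in the barcodes that passed quality control. This signal lies outside the comparisons and exceeded the limit of 3 counts that a count of 0 allows. Presomitic mesoderm cells held 2 of these UMIs in embryo 1 and none in embryos 2 and 3, and all other barcodes held 26 in embryo 1, none in embryo 2 and 31 in embryo 3. The source was not tested.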

How the results depend on the processing

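The number of calls moved with several settings. Against all other barcodes 2200 genes passed, and 5005 with the embryo as a replicate block, 929 after thinning and 353 to 1409 with 1 embryo left out. Against somite-type cells 812 passed, with 1997, 347 and 361 to 545 under the same settings. Against streak-type cells 675 passed, with 1415 under the block, 135 after thinning, 1143 with no filter on low counts and 290 to 423 with 1 embryo left out. Against neuromesodermal-type cells 1366 passed, with 3257 under the block, 247 after thinning, 491 when members could hold Sox2 and 556 to 867 with 1 embryo left out. Between T-positive and Aldh1a2-positive cells 444 passed, with 777 under the block, 69 after thinning, 736 with no filter, 284 with at least 4 markers and 272 to 314 with 1 embryo left out. The other settings left these counts within 1.5 times. The share of presomitic mesoderm was 6.10%, 3.84% with at least 4 markers, 1.81% after thinning, 11.5% with Sox2 allowed and 4.45 to 7.03% with 1 embryo left out. The cause of these moves was not tested.

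Of 9317 pairs of a called gene and a setting, 8362 kept direction and call, 945 lost the call and 10 changed sign. With Sox2 allowed, Hoxd1 (-0.051), Pou3f1 (0.015) and Fgfbp3 (0.090) against all other barcodes and Slc2a3 (0.14) and Otx2 (0.54) against somite-type cells reversed. After thinning, Mesp1 (-0.016) and Slc2a3 (0.064) against somite-type cells, Klf5 (-0.0095) against streak-type cells, Hoxb4 (-0.039) against neuromesodermal-type cells and Epha4 (0.057) between T-positive and Aldh1a2-positive cells reversed. None of the 734 calls of named or listed genes, counted over the 5 comparisons, was lost under the block. The split of calls against all other barcodes moved from 40.4 to 54.4% higher without embryo 3, and against neuromesodermal-type cells from 47.9 to 60.5% with Sox2 allowed.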
